A study of Mus musculus with 10 samples.

Results

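Rab proteins are small GTPases that mark the membranes of the secretory and endocytic pathways. Each switches between a GDP-bound form, held in the cytosol by dissociation inhibitors, and a GTP-bound form that sits on a membrane and recruits tethers, motors and sorting proteins. Exchange factors load GTP, and GTPase-activating proteins end the active state. In neurons these proteins move cargo between the cell body, axon and dendrites and through synaptic endosomes, and glia use the same machinery for secretion and degradation. The genes described here are all mouse genes whose symbol is Rab followed by a number, leaving out the Rab3 group of synaptic vesicle proteins and leaving out proteins that only bind Rabs. The rule used no measured value. It gave 55 genes of the 17876 with a probe set of their own, and 47 of the 55 passed the filter on low signal.

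The measurements came from 10 Affymetrix Mouse 430 2.0 arrays of neocortex, 1 array per mouse. There were 5 mice aged 5 months, numbered 1 to 5, and 5 mice aged 30 months, numbered 2 to 6. All were male B6xC3 F1 hybrids, also written B6C3F1, housed singly and fed the control AIN-93M diet. The labels name no transgene, deletion or drug in either group. In the deposited table the names of all 30-month arrays begin with the letters SK and those of the 5-month arrays do not, the meaning is not given there, and it cannot be told apart from age. Neocortex is a mixture of neurons, glia and vessels, and in such bulk tissue fewer cells of a type and less RNA per cell cannot be told apart.

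Levels are the deposited probe set signals on a linear scale, listed below in mouse order. Changes are log2 differences, 30 months minus 5 months, with the standard error (SE) of a limma fit to all 11963 genes tested. A gene is said to have risen or fallen where the limma p-value, adjusted by the Benjamini-Hochberg method over those 11963 genes, was under 0.05. Signals of different probe sets depend on their probes, so the level of one Rab is not set against that of another.

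Some related Rabs changed differently, as given further on, and the upstream sequences of 2 such pairs are shown here. These 2 were picked with the changes known. Each is the run of 250 bases directly before the annotated start of the gene in RefSeq's GRCm38.p6 assembly, read 5′ to 3′ on the gene's own strand. Capitals mark the CCAAT box (CCAAT, or ATTGG on the other strand) and the GC box (GGGCGG, or CCGCCC on the other strand), and no overlap between them occurs in these windows. The sequence of Rab8a, at chr8:72160950-72161199 on the plus strand, is followed by that of Rab8b, at chr9:66919706-66919955 on the minus strand.
Rab8a: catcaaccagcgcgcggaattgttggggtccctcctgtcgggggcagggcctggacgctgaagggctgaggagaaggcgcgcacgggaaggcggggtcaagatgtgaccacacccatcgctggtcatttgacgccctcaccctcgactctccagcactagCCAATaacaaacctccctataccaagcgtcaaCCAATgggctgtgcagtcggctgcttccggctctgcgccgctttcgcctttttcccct
Rab8b: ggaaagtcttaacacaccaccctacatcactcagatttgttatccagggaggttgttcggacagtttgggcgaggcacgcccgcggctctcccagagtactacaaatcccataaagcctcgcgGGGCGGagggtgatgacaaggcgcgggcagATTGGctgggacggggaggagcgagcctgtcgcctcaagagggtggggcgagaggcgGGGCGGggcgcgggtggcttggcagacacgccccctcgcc
The next pair holds Rab1a, at chr11:20201162-20201411 on the plus strand, and Rab1b, at chr19:5106997-5107246 on the minus strand.
Rab1a: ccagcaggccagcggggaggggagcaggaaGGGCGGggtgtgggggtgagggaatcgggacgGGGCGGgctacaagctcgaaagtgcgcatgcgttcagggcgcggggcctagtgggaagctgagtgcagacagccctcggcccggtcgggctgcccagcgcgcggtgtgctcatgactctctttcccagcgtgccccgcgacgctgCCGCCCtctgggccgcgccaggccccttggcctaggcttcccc
Rab1b: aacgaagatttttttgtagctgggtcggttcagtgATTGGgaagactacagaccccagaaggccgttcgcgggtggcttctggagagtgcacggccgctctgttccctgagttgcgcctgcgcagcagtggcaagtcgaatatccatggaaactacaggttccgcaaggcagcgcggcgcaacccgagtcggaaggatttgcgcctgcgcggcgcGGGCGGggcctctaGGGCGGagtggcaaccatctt
The Rab8a window held 2 CCAAT boxes and 0 GC boxes, and that of Rab8b held 1 CCAAT box and 2 GC boxes. The Rab1a window held 0 CCAAT boxes and 3 GC boxes, and that of Rab1b held 1 CCAAT box and 2 GC boxes. Promoter sequences were found by symbol or gene ID for 44 of the 55 genes, which had 55 windows between them. A GC box lay in 65.5% of these windows, against 56.5% of the windows of all genes tested and 32.7% of the 32851 windows in the RefSeq table. A CCAAT box lay in 40.0% of them, against 34.8% and 33.8%. These matches describe letters and were not tested as binding sites.

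With age, 17 of the 47 Rab transcripts tested rose, 6 fell and the other 24 stayed short of the threshold. The rises were 36.2% of the Rabs, beside a background of 34% of all genes tested, and the falls were 12.8%, beside 12.3% (46.3% of all genes in either direction). The share of Rabs that changed was thus close to the background, and the counts are no result about the family. The median change over the 47 genes was 0.13 on the log2 scale, and over all genes tested it was 0.08. Changes were moderate, from −0.53 (Rab38) to 0.51 (Rab8b). In 18 of the 47 genes (38.3%) the 2 ages did not overlap, beside 30.2% of all genes. Every old array was above every young array in 15 of the 47, beside 24.5% of all genes, and below in 3 of the 47, beside 5.75%. Among genes with ages apart, 15 of 18 Rabs were higher in old mice, beside 2927 of 3615 over all genes. A further requirement of a fold of at least 1.2 left 11 higher and 5 lower Rabs, beside 22.7% and 8.43% of all genes.

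How the arrays were scaled to each other set how many Rabs rose. With the deposited scaling, 73.9% of the Rabs that passed the test were higher in old mice, and 73.5% of all genes that passed. Quantile normalization gave 12 higher and 8 lower Rabs, or 60.0% higher (52.9% for all genes), beside backgrounds of 22.9% higher and 20.4% lower. Setting each array to the same median over all probe sets gave 19 and 5, or 79.2% higher (76.7% for all genes), beside 35.5% and 10.7%. Setting each array to the same median over the brighter probe sets, those past the filter, gave 11 and 9, or 55.0% higher (49.1% for all genes), beside 21.8% and 22.6%. The median change of all genes was 0.08, 0.00, 0.10 and −0.01 under these 4 scalings, so the sign of a small change depends on the choice. By the probe set that stands for each gene, 10 Rabs rose under all 4, namely Rab1b, Rab2b, Rab4a, Rab4b, Rab5b, Rab8b, Rab31, Rab33a, Rab35 and Rab40c. Likewise 5 fell under all 4, namely Rab8a, Rab27b, Rab36, Rab37 and Rab38. Of these 15 genes, Rab2b, Rab4a, Rab27b and Rab31 did not pass the test when the tested probe sets of each gene were averaged.

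**Figure D1:**
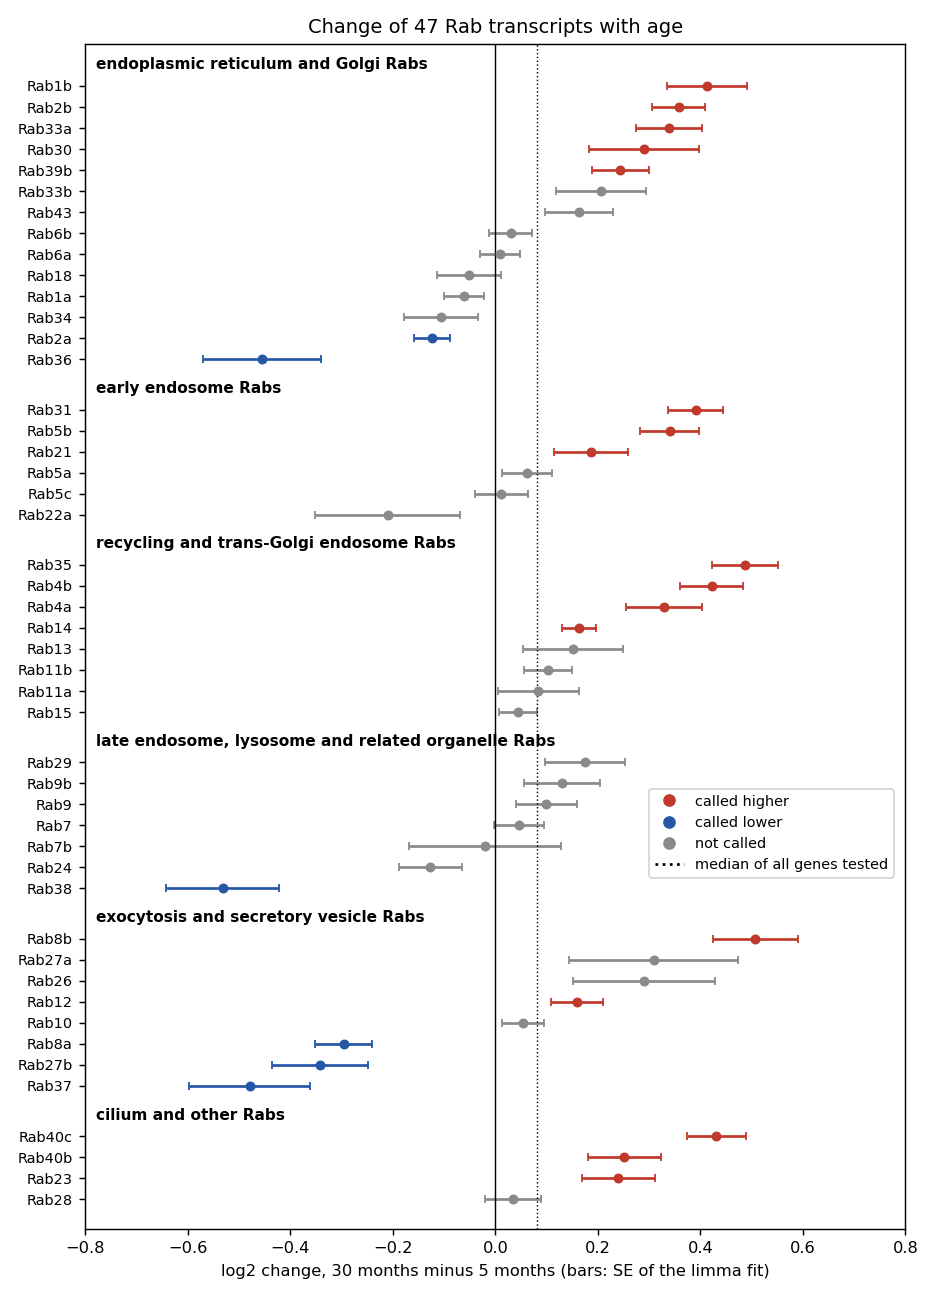
Log2 change of the 47 tested Rab transcripts between 5 and 30 months, in groups by the compartment each protein is known for. Points are limma estimates from 5 mice per age, bars are SE, red and blue mark genes that rose or fell, and the dotted line is the median of all genes tested, 0.08. Blue points lie in the Golgi, late endosome and exocytosis groups, and the recycling group has red and grey points to the right of 0.

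Rabs of the endoplasmic reticulum and Golgi formed the largest group, with 14 of 16 genes tested, 5 of them higher and 2 lower (median change 0.10). For this and each later group the background was 34% higher and 12.3% lower of all genes tested. No group was tested against it. Rab1a and Rab1b both drive transport from the endoplasmic reticulum to the Golgi. Rab1b signals were 1288, 1077, 1052, 1102 and 886 at 5 months and 1403, 1428, 1411, 1426 and 1480.1 at 30 months. Every old mouse lay above every young mouse, and Rab1b rose by 0.41 (SE 0.08, adjusted p = 0.00097), a 1.33-fold difference. Rab1a signals were 5032, 5229.8, 5071, 4753 and 4779 in young mice and 4473, 4771, 4881, 4748 and 4940.1 in old mice. The ages overlapped, and the change was −0.06 (SE 0.04, adjusted p = 0.206). Its call depended on scaling, since with equal medians over the brighter probe sets the change was −0.16 with an adjusted p of 0.00817. A second, dimmer Rab1a probe set had a change of 0.15 (adjusted p = 0.185 over all probe sets).

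Rab2a and Rab2b act in transport at the Golgi. Rab2b signals were 727, 798, 756, 804 and 785 at 5 months and 1029, 944, 1021, 999 and 964 at 30 months. The groups were apart on every array, with a rise of 0.36 (SE 0.05, adjusted p = 0.000143). The other 4 tested probe sets of Rab2b did not pass the test, at changes of 0.18, 0.18, 0.04 and −0.19, and with the mean of all of them the change was 0.11 (adjusted p = 0.143). Rab2a was between 5182 and 5558 in young mice and between 4819 and 5236 in old mice, a change of −0.12 (SE 0.04, adjusted p = 0.0114). The old mouse 6, at the upper end, overlapped the young range, and the other 4 old mice lay below it. With equal medians over all probe sets this call for Rab2a did not pass the test, and other probe sets of Rab2a differed in direction, as given further on.

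Rab33a, which is found on vesicles that move along growing axons, showed 846, 802, 729.8, 775 and 715 in young mice and 1021, 871, 1029.6, 988 and 982 in old mice. All old arrays were above all young arrays, and the change was 0.34 (SE 0.06, adjusted p = 0.000991). Its relative Rab33b, a Golgi Rab with a role in autophagy, had a change of 0.21 (SE 0.09, adjusted p = 0.0706). Rab30, another Golgi Rab, was dim, at 133, 123, 126, 125 and 124 in young mice and 145, 142, 148, 206 and 138 in old mice. The old group was higher throughout, by 0.29 (SE 0.11, adjusted p = 0.0404), but old mouse 5 stood far above the rest. Without that mouse the Rab30 change was 0.19 (adjusted p = 0.0863), and without young mouse 2, 3, 4 or 5 it was 0.28 to 0.29 (adjusted p from 0.0683 to 0.0754).

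Rab39b, whose human counterpart is mutated in an X-linked form of intellectual disability with early parkinsonism, rose by 0.24 (SE 0.06, adjusted p = 0.00316). Its range was 625 to 682 at 5 months and 712 to 832 at 30 months, with no overlap. Rab36, a Golgi Rab, fell by 0.45 on the log2 scale (SE 0.12, adjusted p = 0.00581), or 1.37-fold lower. Young mice lay between 1364 and 1644, and old mice between 819 and 1379, with the brightest old mouse just inside the young range. A second Rab36 probe set fell by 0.40 with no overlap (adjusted p = 0.000183 over all probe sets), and another, dim one was at 0.26 (adjusted p = 0.251). With the mean of the tested probe sets the Rab36 change was −0.20 (adjusted p = 0.0415).

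The other Golgi and endoplasmic reticulum Rabs did not pass the test. The Golgi retrograde Rabs Rab6a and Rab6b had changes of 0.01 (SE 0.04) and 0.03 (SE 0.04), while a second probe set of each fell, by 0.14 for Rab6a (adjusted p = 0.0357) and 0.22 for Rab6b (adjusted p = 0.0201 over all probe sets). Rab18, known for endoplasmic reticulum and lipid droplet contacts, had a change of −0.05, Rab34 of −0.11 and Rab43 of 0.16. Under equal medians over the brighter probe sets, and under quantile normalization, Rab34 was lower.

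Early endosome Rabs were tested for 6 of 7 genes, of which 3 rose and 0 fell (median change 0.12). The Rab5 proteins direct the fusion of early endosomes, and of the 3 only Rab5b passed the test. Rab5b signals were 290.3, 293, 304, 294 and 290.4 at 5 months and 353, 377, 403, 361 and 369 at 30 months. The young mice were nearly alike and all old mice were higher, by 0.34 (SE 0.06, adjusted p = 0.000398). Rab5a signals were 2518, 2742, 2375, 2452 and 2487 at 5 months and 2545, 2741, 2469, 2753 and 2604 at 30 months. The ages overlapped over most of their range, with a change of 0.06 (SE 0.05, adjusted p = 0.327), and Rab5c had a change of 0.01 (SE 0.05, adjusted p = 0.869).

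Rab31, also called Rab22b, carries cargo between the trans-Golgi network and endosomes. Its signals were 1053, 995, 878, 971 and 971 in young mice and 1260.3, 1286, 1258, 1249.7 and 1318 in old mice. Old mice lay in a narrow band above all young mice, and the change was 0.39 (SE 0.05, adjusted p = 0.000109). Rab21, which takes part in integrin uptake, changed by 0.19 (SE 0.07, adjusted p = 0.0465) with overlapping ages. The Rab21 call held only without young mouse 1 or old mouse 2 when single mice were left out, and without any of the other 8 the change was 0.14 to 0.20 (adjusted p from 0.0507 to 0.105). A second, dimmer probe set of Rab21 rose by 0.41 (adjusted p = 0.00134 over all probe sets). Rab22a, an endosomal Rab, had a change of −0.21 (SE 0.14, adjusted p = 0.239), while 2 other probe sets of Rab22a rose by 0.25 and 0.38 (adjusted p = 0.0173 and 0.00261).

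Recycling Rabs, which return receptors from endosomes to the surface, were tested for 8 of 10 genes, of which 4 rose and 0 fell (median change 0.16). Rab35 acts in fast recycling and in cell division. Its signals were 864, 804, 867, 813 and 685 at 5 months and 1129.6, 1127, 1119, 1123 and 1135 at 30 months. The old mice were almost equal to each other and far above the young mice, with a rise of 0.49 (SE 0.06, adjusted p = 7.51e-05), 1.40-fold. Rab35 had the smallest adjusted p of the 47 genes.

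Rab4a and Rab4b both serve the fast recycling route. Rab4b signals were 1020.3, 907, 859, 916 and 839 in young mice and 1264, 1259, 1127, 1243 and 1181 in old mice. Every old mouse was higher, and the change was 0.42 (SE 0.06, adjusted p = 0.000156). Rab4a signals were 950.0, 939.8, 861, 959 and 744 in young mice and 1194, 1112, 1156, 1100.2 and 1015 in old mice. The ages were again apart, by 0.33 (SE 0.07, adjusted p = 0.00297), though the Rab4a probe set is of the kind that can bind several transcripts. Another Rab4a probe set had a change of 0.05 (adjusted p = 0.717), and with the mean of both it was 0.19 (adjusted p = 0.0632).

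Rab11a marks the slower recycling endosome, which supplies dendritic spines with receptors. Rab11a signals were 1347, 1319, 1239.7, 1078 and 1142 at 5 months and 1119, 1402, 1307, 1241 and 1424 at 30 months. Both ages covered much the same range, and the change was 0.08 (SE 0.08, adjusted p = 0.406). Rab11b had a change of 0.10 (SE 0.05, adjusted p = 0.088). Rab14, which links the trans-Golgi network with endosomes, rose by 0.16 (SE 0.03, adjusted p = 0.0015), from 3641 to 3886 in young mice and 4090.4 to 4281 in old mice. Neither Rab13, known from tight junctions, at 0.15 (SE 0.10), nor Rab15, at 0.04 (SE 0.04), passed the test.

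Late endosome, lysosome and lysosome-related Rabs were tested for 7 of 8 genes, of which 0 rose and 1 fell (median change 0.05). Rab7 directs late endosomes to lysosomes. Rab7 signals were 3990.1, 3881, 3928, 3764 and 3356 at 5 months and 3839, 3758, 3876, 3895 and 4133 at 30 months. Young mouse 5 was lowest, old mouse 6 was highest and the other mice overlapped, with a change of 0.05 (SE 0.05, adjusted p = 0.463). Rab38 helps to form melanosomes and other lysosome-related organelles. Rab38 signals were 400.3, 431, 525, 571 and 438 at 5 months and 388, 304, 356, 308 and 278 at 30 months. All old mice were below all young mice, and Rab38 fell by 0.53 on the log2 scale (SE 0.11, adjusted p = 0.0017), 1.45-fold lower. Its only tested probe set is of a type whose probes may also bind other transcripts. Rab32, which shares the melanosome role of Rab38, was under the filter, between 15 and 26.6 in young mice and between 20.3 and 36 in old mice.

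Rab9 and Rab9b, which act in return from late endosomes to the Golgi, had changes of 0.10 (SE 0.06) and 0.13 (SE 0.07), short of the threshold. Rab7b had a change of −0.02 (SE 0.15). Rab29, which can recruit the kinase LRRK2 to membranes, lay between 202 and 225 in young mice and between 226 and 289.6 in old mice. The ages of Rab29 only just did not overlap, and its change of 0.17 (SE 0.08, adjusted p = 0.0843) did not pass the test. Rab24, linked to autophagy, had a change of −0.13 (SE 0.06, adjusted p = 0.105). It was lower under quantile normalization (−0.27, adjusted p = 0.00161) and under equal medians over the brighter probe sets (−0.22, adjusted p = 0.00742), and a second Rab24 probe set fell by 0.42 (adjusted p = 0.0115 over all probe sets).

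Exocytosis and secretory vesicle Rabs were all 8 tested, of which 2 rose and 3 fell (median change 0.11). Rab8a and Rab8b carry vesicles from the Golgi to the plasma membrane and the cilium. Rab8b signals were 883, 928, 976, 785 and 706 at 5 months and 1169, 1184, 1316, 1133 and 1245 at 30 months. The old mice were all higher, and the rise of 0.51 (SE 0.08, adjusted p = 0.000352) was the largest among the 47 genes. Rab8a signals were 1045, 973, 1083, 1079.7 and 951 at 5 months and 839, 867, 821, 859 and 789 at 30 months. Here the old mice were all lower, and the change was −0.30 (SE 0.06, adjusted p = 0.0009).

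Rab27a and Rab27b dock secretory granules, and Rab27b is the form linked to synaptic and dense-core vesicles. Rab27b signals were 397, 395, 380.5, 464 and 469.5 in young mice and 379, 335, 298, 369.9 and 284 in old mice. The highest old mouse was just under the lowest young mouse, and the change was −0.34 (SE 0.09, adjusted p = 0.00896). Rab27a was dim and variable, at 91.9 to 134 in young mice and 105 to 207 in old mice, a change of 0.31 (SE 0.17, adjusted p = 0.141). Rab37, a granule Rab, fell by 0.48 on the log2 scale (SE 0.12, adjusted p = 0.0051), from 154 to 213 at 5 months to 108 to 163 at 30 months, with overlap.

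Rab12 rose by 0.16 (SE 0.05, adjusted p = 0.0208) with no overlap, although under quantile normalization its change was 0.03. Rab10, which moves the glucose transporter GLUT4 to the surface in fat cells, had a change of 0.05 (SE 0.04, adjusted p = 0.293). Rab26, found on synaptic vesicle clusters, had a change of 0.29 (SE 0.14, adjusted p = 0.1).

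The last group held 6 Rabs of the cilium or of other function, 4 of them tested, with 3 higher and 0 lower (median change 0.25). Rab40b and Rab40c carry a SOCS box and act with ubiquitin ligases. Rab40c signals were 887, 800.1, 830.2, 900.1 and 798 in young mice and 1132, 1042, 1175, 1167 and 1168 in old mice. All old mice were above all young mice, by 0.43 (SE 0.06, adjusted p = 7.82e-05). A dimmer Rab40c probe set had a change of −0.10 (adjusted p = 0.395), and with the mean of both it was 0.17 (adjusted p = 0.0253). Rab40b changed by 0.25 (SE 0.07, adjusted p = 0.0105) and Rab23, a brake on Hedgehog signalling, by 0.24 (SE 0.07, adjusted p = 0.0144), both with slight overlap. Both calls were absent under quantile normalization and under equal medians over the brighter probe sets. Rab28, a cilium Rab, had a change of 0.03 (SE 0.05, adjusted p = 0.635), and its second probe set rose by 0.24 (adjusted p = 0.00799).

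Besides Rab32, the genes under the filter were Rab17, Rab19, Rab20, Rab25, Rab39, Rab42 and Rab44. Rab42 was the one with ages apart, at 65.7 to 95.1 in young mice and 99.3 to 138 in old mice, and with the filter removed it rose by 0.51 (SE 0.13, adjusted p = 0.0111), beside 23.2% of all genes that then rose. The other 7 did not pass the test without the filter, and Rab25 was dimmest, at 1.51 to 24.

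**Figure D2:**
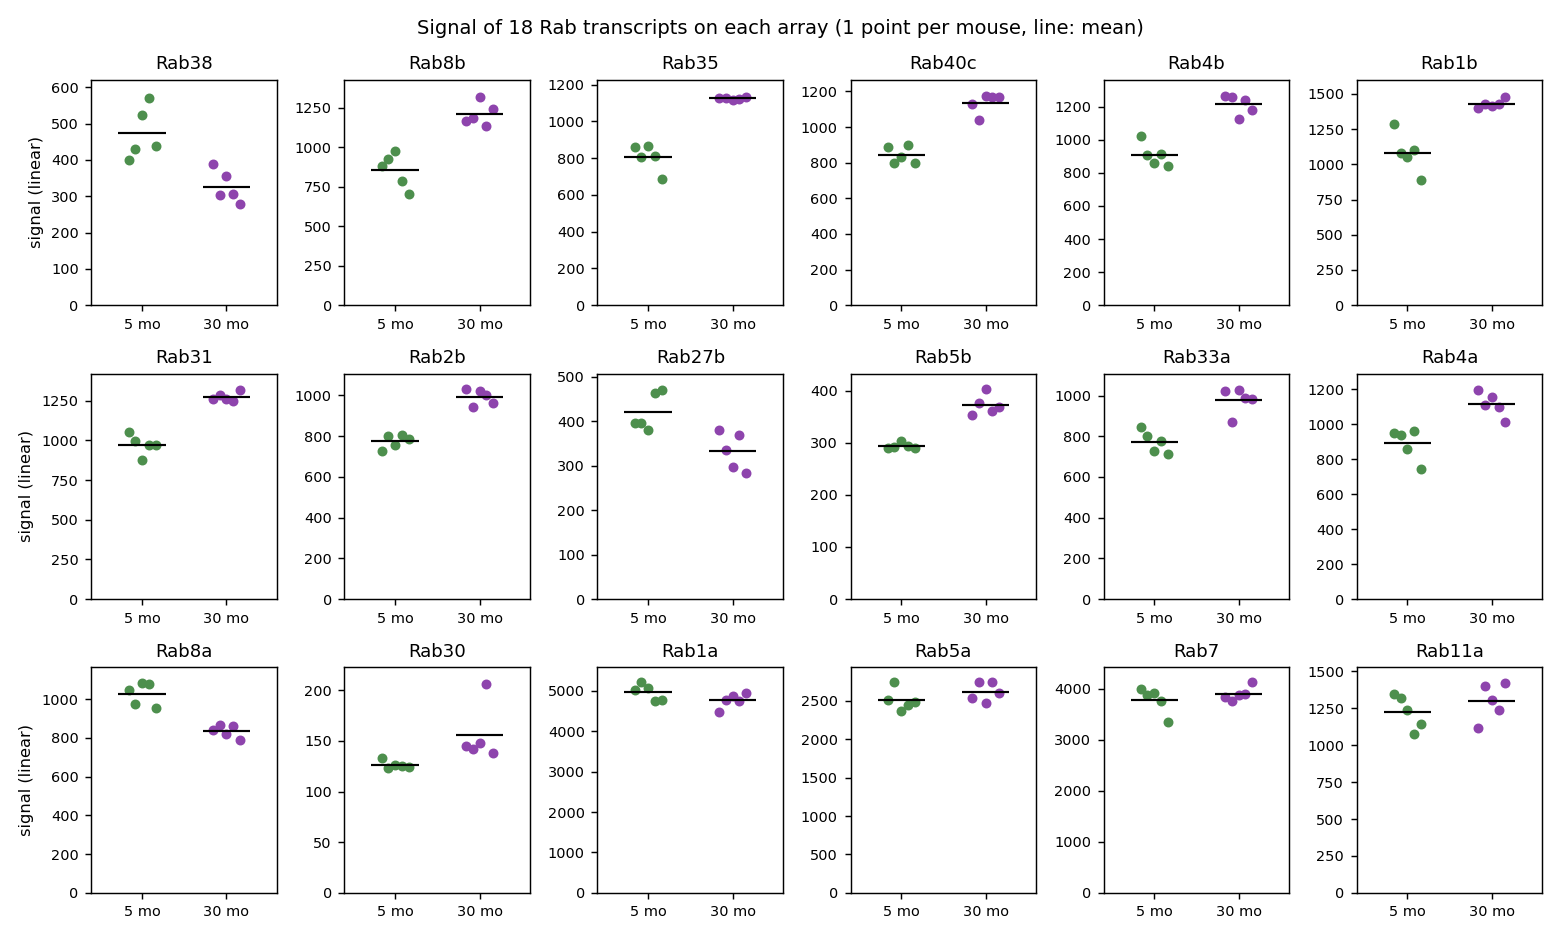
Deposited signal (linear scale) on each array for 18 Rab genes, 5 mice of 5 months in green and 5 of 30 months in purple, with a line at the mean and every axis starting at 0. The ages do not overlap in the first 14 genes, from Rab38 to Rab30, and overlap in Rab1a, Rab5a, Rab7 and Rab11a.

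Rabs that share a number are close relatives, and in some such pairs the genes changed differently with age. For 14 pairs the log2 difference between the 2 genes was taken within each array, which removes the scale of the array, and its mean was compared between ages by a two-sided exact permutation test. The smallest p this design allows is 0.00794, and p-values were adjusted over the 14 pairs. The set was added after the changes of single genes had been seen, and it holds every same-numbered pair with both genes tested. For 6 of the 14 the difference changed, each with an exact p of 0.00794 and an adjusted p of 0.0185. In each the 5 old arrays were apart from the 5 young arrays. Rab5b minus Rab5a and Rab5c minus Rab5b are both among them and share the change of Rab5b. Pairs of other genes were not run, and 46.3% of all genes passed the limma test singly. The count is thus no result about same-numbered pairs.

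The largest such change was in Rab8b minus Rab8a, the pair whose upstream sequences stand first above. Within arrays this difference was −0.24, −0.07, −0.15, −0.46 and −0.43 at 5 months and 0.48, 0.45, 0.68, 0.40 and 0.66 at 30 months. All old arrays lay above all young arrays, a shift of 0.80 (SE 0.10), and the sign of a single difference has no meaning between probe sets. Rab1b minus Rab1a shifted by 0.48 (SE 0.08), from −2.43 to −1.97 at 5 months to −1.79 to −1.67 at 30 months, so the range in old mice was narrow. With the mean of the tested probe sets this shift was 0.37 (adjusted p = 0.0278). Rab2b minus Rab2a shifted by 0.48 (SE 0.05), but with the mean of each gene's tested probe sets the value was −0.02 (adjusted p = 0.913).

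Among the Rab5 genes, Rab5b rose relative to both others, with Rab5b minus Rab5a shifting by 0.28 (SE 0.07) and Rab5c minus Rab5b by −0.33 (SE 0.07). Rab5c minus Rab5a differed between ages by −0.05 (SE 0.06, exact p = 0.492, adjusted p = 0.689). Rab27b minus Rab27a shifted by −0.65 (SE 0.22), and old mouse 4, at 0.53, was far below the other 4, which lay between 1.32 and 1.49. With the mean of the tested probe sets the Rab27 value was −0.22 (adjusted p = 0.642).

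The other 8 pairs did not pass the test. The difference between ages was 0.09 for Rab4b minus Rab4a, both of which rose (SE 0.07, adjusted p = 0.319). That pair did pass with the mean of the tested probe sets (0.23, adjusted p = 0.0444). It also passed without probe sets whose names end in x_at or s_at (0.37, adjusted p = 0.0159). The difference was 0.18 for Rab40c minus Rab40b (SE 0.08, adjusted p = 0.127). It was −0.13 for Rab33b minus Rab33a (SE 0.12, adjusted p = 0.469). The 4 pairs of Rab6, Rab7, Rab9 and Rab11 gave values between −0.07 and 0.03, all with an adjusted p of 0.77.

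**Figure D3:**
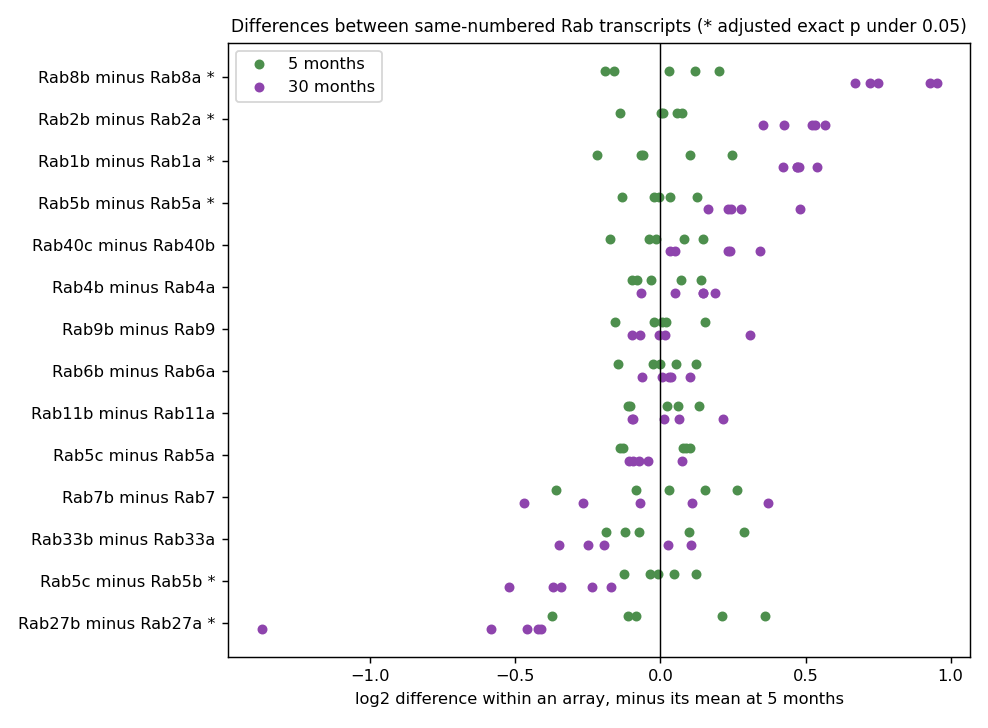
Log2 difference between 2 same-numbered Rab genes within each array, shown relative to the mean of the 5 young arrays, for 14 pairs (green, 5 months; purple, 30 months; 1 point per mouse). Stars mark the 6 pairs with an adjusted exact p under 0.05, and in these the colours do not overlap.

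Many Rab genes have several probe sets, which may read different parts or forms of the transcript. What each probe set reads was not examined. The 55 genes had 120 probe sets, of which 85 passed the filter and were tested among 22518, with p-values adjusted over all of these. Of the 85, 23 rose and 13 fell, beside backgrounds of 29.1% and 11.8%. Of the 22 Rabs with more than 1 tested probe set, 5 (22.7%) had probe sets that passed the test in opposite directions, beside 9.45% of the 4953 genes with several tested probe sets. These were Rab2a, Rab14, Rab27b, Rab31 and Rab39b. For them the direction given above is that of the brightest probe set, and these data do not give a single direction for the gene.

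For Rab31 the brightest probe set rose by 0.39 (adjusted p = 0.00017), and the other, between 288 and 544 in young mice and between 188 and 291 in old mice, fell by 0.63 (adjusted p = 0.00997). For Rab39b the brighter one rose by 0.24 and the other fell by 0.62 (adjusted p = 0.00117), from 481 to 660 down to 273 to 425. Rab27b had the opposite order, with a fall of 0.34 for the brightest and rises of 0.37 (adjusted p = 0.000756) and 0.25 (adjusted p = 0.0197) for 2 others. In Rab14 the brightest rose by 0.16, a second fell by 0.39 (adjusted p = 0.00152), and 2 more had changes of 0.02 and 0.07. In Rab2a the brightest fell by 0.12, one at 95.8 to 176 in young mice and 145 to 285 in old mice rose by 0.73 (adjusted p = 0.00959), and 4 others did not pass the test.

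**Figure D4:**
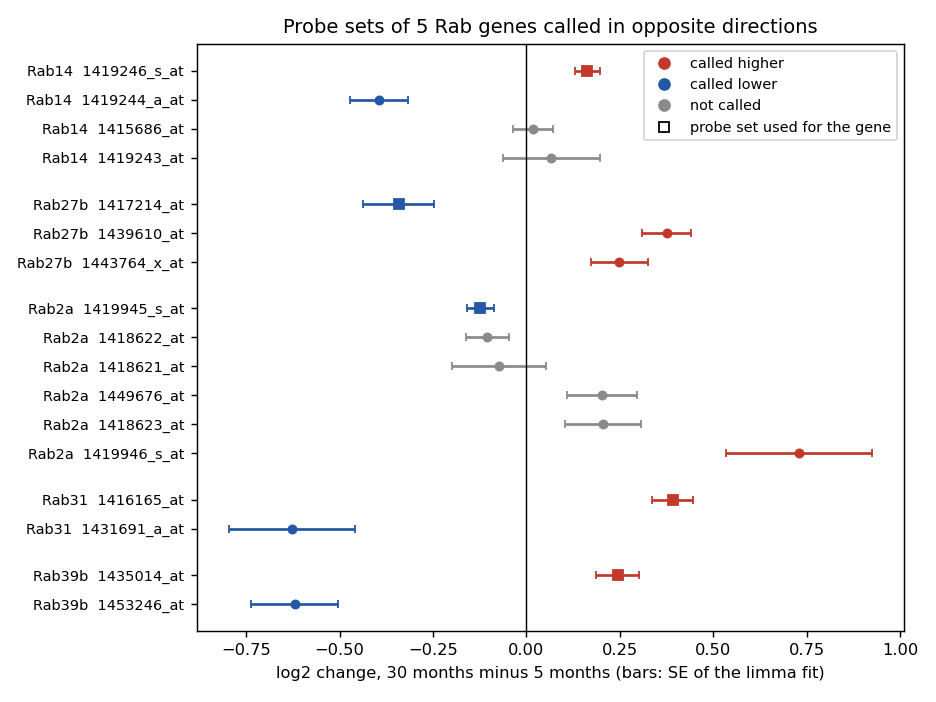
Log2 change between 5 and 30 months of each tested probe set of the 5 Rab genes whose probe sets passed the test in opposite directions, with SE bars from 5 mice per age. Squares mark the probe set that stands for the gene, and each gene has at least 1 red and 1 blue point.

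By the authors' criteria 12 of the 120 Rab probe sets (10%) changed, beside 4034 of all 45037 (8.96%) in the authors' deposited table. Of the probe sets that stand for a gene, 6 met the criteria, those of Rab8b, Rab35, Rab40c, Rab4b, Rab31 and Rab38. Their folds in the authors' deposited table were 1.41, 1.40, 1.35, 1.34, 1.31 and −1.45, in that order.

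The proteins that load, switch off and read Rabs were taken from lists of 128 genes, of which 108 were tested. Of these, 42 rose (38.9%) and 9 fell (8.33%), with a median change of 0.12, beside the backgrounds of 34% and 12.3% and the median of 0.08. This split moved with scaling. Under quantile normalization it was 25 higher and 22 lower of 108, beside backgrounds of 22.9% and 20.4%. Under equal medians over the brighter probe sets it was 26 and 22, beside 21.8% and 22.6%. Both shares under quantile normalization were thus close to the background.

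In the core cycle 7 of 8 genes were tested, with 3 higher and 1 lower. For this and each list below the background was again 34% higher and 12.3% lower. No list was tested against it. Gdi2, a dissociation inhibitor that extracts Rabs from membranes, rose by 0.27 (SE 0.05, adjusted p = 0.000544). Its probe set is of a type whose probes may also bind other transcripts. The escort protein gene Chm rose by 0.17 (adjusted p = 0.0253), and Rabggta, a subunit of the enzyme that attaches the lipid anchor, by 0.39 (adjusted p = 0.0278). Rabac1, which helps Rabs leave the inhibitor, fell by 0.21 (adjusted p = 0.0222).

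Exchange factors were tested for 30 of 35 genes, with 12 higher and 2 lower (median change 0.14). Gapvd1, which acts on Rab5, rose by 0.31 (adjusted p = 0.000257). Sbf2 and Sbf1, DENN domain proteins of the myotubularin family, rose by 0.31 and 0.33. Hps1, part of the exchange factor for Rab32 and Rab38, fell by 0.43 (SE 0.08, adjusted p = 0.000766), with all old mice below all young mice. Dennd6b fell by 0.43 (adjusted p = 0.00881). The probe sets read for Sbf2, Hps1 and Dennd6b are of a type whose probes may also bind other transcripts. Other probe sets of the genes in these lists are not reported here.

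GTPase-activating proteins were tested for 32 of 34 genes, with 8 higher and 4 lower (median change 0.02). Sgsm2 rose by 0.64 (SE 0.06, adjusted p = 6.91e-06) and Tbc1d9b by 0.62 (SE 0.05, adjusted p = 4.84e-06), both larger than any change among the 47 Rabs. Rabgap1, which acts on Rab6 and others, rose by 0.33, and Tbc1d30 by 0.25. Tbc1d20, which switches off Rab1, fell by 0.31 (SE 0.07, adjusted p = 0.00302). Tbc1d10a, which acts on Rab27 and Rab35, fell by 0.63, Tbc1d8b by 0.60 and Tbc1d2b by 0.57.

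Effectors were tested for 38 of 49 genes, with 19 higher (50.0%) and 2 lower (5.26%), beside 34% and 12.3% of all genes. Their median change was 0.17. Fyco1, which ties Rab7 vesicles to kinesin, rose by 0.79 (SE 0.10, adjusted p = 7.84e-05), 1.73-fold. Rabep1 and Rbsn, which bind Rab5 and Rab4 on early endosomes, rose by 0.48 (adjusted p = 7.18e-05) and 0.38 (adjusted p = 0.000181). Vps39, a subunit of the HOPS tether of late endosomes, rose by 0.44 (adjusted p = 7.82e-05). Plekhm2, a kinesin adaptor of lysosomes, fell by 0.25, and Ehbp1l1, a partner of Rab8, fell by 0.21. Lrrk2, the kinase that phosphorylates several Rabs, had a change of −0.21 (SE 0.09, adjusted p = 0.0647). For comparison, the synaptic vesicle Rabs Rab3a, Rab3b, Rab3c and Rab3d had changes of −0.10, 0.17, 0.11 and −0.20, with adjusted p of 0.0486, 0.0406, 0.161 and 0.0401, and ages overlapped in all 4.

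Array medians over all probe sets lay between 114.5 and 122.6 and did not differ detectably between ages (two-sided exact permutation p = 0.357). That median lies at the filter, among dim probe sets, so it does not describe the scale of the brighter ones that were tested. Equal medians over those moved the median change of all genes from 0.08 to −0.01. All 8 neuronal markers passed the filter, 1 of them higher and 0 lower, and their summed signal was 42380 to 46113 in young mice and 42355 to 44949 in old mice. Astrocyte markers rose in 8 of 8, with sums of 9590.2 to 10993 and 14235 to 15656. Microglia markers rose in 6 of 8 and fell in 2, with sums of 7724 to 8512 and 11494 to 12348. Oligodendrocyte markers rose in 4 of 8 (27475 to 29445 and 27875 to 34119), and endothelial markers in 2 of the 5 of 8 tested (3313 to 3860 and 4408 to 4731). Choroid plexus markers fell in 2 of the 3 of 8 tested (8925 to 11693 and 3959 to 12323), and 5 of that list did not pass the filter. The sums also cover markers with a probe set under the filter. The choroid plexus sum came mostly from Ttr, at 7969 to 10541 in young mice and 2898 to 10851 in old mice. Ttr in old mice 3 and 6 was not below the young range. The part of these differences in the Rab changes was not tested. Old mouse 6 was the lowest of the old mice in 5 of the 6 Rabs that fell, beside 48.4% of all genes that fell, and leaving it out kept all 6 calls.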

How the data were processed

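The authors deposited linear intensities of 45037 probe sets for each of the 10 arrays, and a second table that sets these intensities beside a comparison of the ages. In it each probe set has, per the file headers, a signed fold by the authors with a lower bound, and a p-value. Per the file headers, the authors marked probe sets whose bound exceeded 1.2 in either direction with a p-value up to 0.1. The submitters' processing notes name GCOS. The steps of background correction, probe summary and array scaling were not given in the sources used here. Messenger RNA was purified from frozen tissue and labelled as biotin cRNA, per the labels' protocols. Another scaling than the deposited one moves the changes, as the alternatives show.

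The deposited scaling was kept, 55 intensities under 1 were raised to 1, and values were put on the log2 scale. Probe sets were named by gene ID (36239) or accession (60) through RefSeq's mouse gene table, 1261 matched several genes and 7477 none. Probe sets with a mean log2 above the median of all probe sets (6.889) were tested, 1 per gene, that with the highest mean. The test was limma 3.58.1 in R 4.3.3 with a variance trend, over all 10 arrays, 5 per age, with no covariate. It was also run on simulated data, built from the means and spreads of the real genes. Precision is limited by the number of arrays. The genes and lists were chosen with earlier results of these data known. Signals of every array are given for up to 14 Rabs that passed the test with ages apart, by size of change, and for Rab1a, Rab5a, Rab7, Rab11a and Rab27b. The other Rabs have a change or range, and each other list has up to 4 rising and 4 falling genes, by smallest adjusted p. Some genes of these lists are not reported here by name. Mice 2 to 5 occur at both ages by number. The deviations of same-numbered arrays correlated at −0.33, −0.04, 0.084 and 0.108, so numbers were not used as pairs. Alternatives covered scaling, added constants, filters, probe set choice, the variance model, array weights, thresholds, a block for mouse number and leaving out each mouse.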

Additional observations from a re-analysis of the deposited data

Results flagged for a closer look

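In 5 of 94 groups of 5 mice, 1 mouse stood apart from the other 4 by more than Dixon's limit of 0.71 of the group's range. Chance alone flags about 1 group in 20, so this number is near that rate. Rab18 was at 1789 in old mouse 2, and the other old mice lay between 2027 and 2132. Rab2a was at 5236 in old mouse 6, above the others at 4819 to 4895, and without that mouse its change was −0.14. Rab30 was at 206 in old mouse 5, above the others at 138 to 148, and without that mouse its change was 0.19. Rab33a was at 871 in old mouse 3, below the others at 982 to 1029.6, and without that mouse its change was 0.38. Rab5b was at 304 in young mouse 3, above the others at 290.3 to 294, and without that mouse its change was 0.35. The causes were not tested.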

How the results depend on the processing

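Over 26 alternatives, the 27 Rabs that passed the test or had every array printed kept their side of the threshold in 639 cases. The call was lost in 49, gained in 1 (Rab1a, −0.16), and reversed in sign, with a call in either fit, in 6. The 639 include changes of sign in uncalled genes, such as Rab11a at −0.05 and Rab5a at −0.02 under quantile normalization. Of the other 20 tested Rabs, Rab11b, Rab22a, Rab24, Rab26, Rab33b, Rab34 and Rab43 passed under 1 to 5 alternatives. With the mean of the tested probe sets, the reversed values were −0.037 for Rab14, 0.0936 for Rab27b, 0.14 for Rab2a, −0.12 for Rab31 and −0.19 for Rab39b, and the count with ages apart was 11. Without probe sets whose names end in x_at or s_at, Rab14 was at −0.39. Quantile normalization gave a median Rab change of 0.0376 and 25 higher and 22 lower regulators and effectors, beside backgrounds of 22.9% and 20.4%. Equal medians over the brighter probe sets, chosen after seeing the data, gave a median Rab change of 0.0366 and 11 higher Rabs. Regulators and effectors were then 26 higher and 22 lower, beside backgrounds of 21.8% and 22.6%. A filter at the upper quartile left 35 Rabs, of which 3 fell, beside 848 of 7124 genes. Array weights gave 16 lower regulators and effectors, beside 1765 of 11963 genes lower. A fold of at least 1.2 left 11 higher Rabs and 25 higher regulators and effectors, beside backgrounds of 22.7% higher and 8.43% lower. Leaving out 1 mouse at a time gave 15 to 18 higher and 6 to 7 lower Rabs, and medians of 0.11 to 0.16. It gave 36 to 44 higher and 8 to 12 lower regulators and effectors. The pairs stayed at 6 of 14, a count that could not fall, since ages that are apart stay apart without 1 mouse. Of all 11963 genes, 3571 to 4147 were then higher and 1199 to 1547 lower. Ages were apart in 18 to 22 Rabs. Groups of 4 and 5 part more easily than 5 and 5, and the share over all genes was not computed. For the pairs, the other alternatives gave 5 to 7. Among these, equal medians over all probe sets cannot change a difference within an array.

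With mouse number as a replicate block (mice 2 to 5), 15 Rabs were higher and 6 lower, and without the block 16 and 6. Of all 11963 genes, 3467 were higher and 1007 lower with the block, and 3786 and 1192 without it. Of these 8 arrays, 1 correlated best with its own number. Regulators and effectors gave 31 higher and 9 lower with the block, and 37 and 9 without it.

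In data simulated for the comparison of ages over 11963 genes, 40 of 67 genes changed 1.25-fold were found, 61 of 67 changed 1.5-fold and 65 of 66 changed 2-fold. Only these genes were changed, all upward, whereas 46.3% of all genes passed in the real data. The adjusted p-value depends on the share of genes that change. These rates therefore do not measure how well the fit to the real data finds such changes. Dim Rabs such as Rab27a and Rab7b had the largest errors among Rabs (SE 0.17 and 0.15). The causes of the shifts between settings were not tested.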
